A study of Mus musculus with 18 samples.

Results

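The miR-29 family was followed through input and Ψ-IP small RNA libraries of mouse NIH/3T3 cells, an established embryonic fibroblast line. Its members were taken by name from the deposited table of microRNAs (miRNAs): the 3 guide strands mmu-miR-29a-3p, mmu-miR-29b-3p and mmu-miR-29c-3p, and the 3 passenger strands mmu-miR-29a-5p, mmu-miR-29b-1-5p and mmu-miR-29c-5p (the species prefix is left out from here on), which makes 6 of the 1907 mature miRNAs in the table. Ψ-IP is immunoprecipitation of RNA with an antibody against pseudouridine (Ψ), an isomer of uridine. WT (wild-type) cells were compared with cells at 3 days (KD3) and 6 days (KD6) of Pus1 knockdown. Pus1 encodes a pseudouridine synthase. Each of the 3 conditions had 3 input and 3 IP libraries, called replicates A, B and C, 18 in all. How Pus1 was knocked down in these cells, and whether the replicates are separate cultures, is not given in the sources used here, so p-values measure only the spread between these libraries, which may be technical. The table holds no mRNA, so the level of Pus1 itself was not analysed here and the knockdown was not checked. The libraries compared were IP and input only, with no IP by a control antibody among them. The WT libraries carry no day, and no library is labelled as a control of the knockdown procedure. Pus1 loss, the procedure and time in culture therefore cannot be told apart in the comparisons with WT.

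A miRNA hairpin is cut into 2 strands. The guide strand is kept by an Argonaute protein and pairs with target mRNAs through its seed, the bases from position 2 to position 8, while most copies of the passenger strand are lost. The miR-29 guide strands are known for repressing mRNAs of the extracellular matrix, among them collagens, elastin and fibrillin, and the family is known to be low in fibrotic tissue, where fibroblasts deposit matrix. The passenger strands have other seeds and are less studied.

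The mature sequences are shown because the members split in the IP by strand and by hairpin while the guide strands are nearly identical. They are RefSeq sequences of GRCm38.p6, 5′ to 3′, with the seed in capitals, and all members matched an entry. The guide strands were as follows.
miR-29a-3p: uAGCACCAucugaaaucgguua
miR-29b-3p: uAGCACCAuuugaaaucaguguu
miR-29c-3p: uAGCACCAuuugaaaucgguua
The passenger strands of the member list came next, followed by miR-29b-2-5p, which is not in the member list but is the passenger strand of the second miR-29b hairpin and is given beside the members without being counted among them.
miR-29a-5p: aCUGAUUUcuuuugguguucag
miR-29b-1-5p: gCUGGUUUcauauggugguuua
miR-29c-5p: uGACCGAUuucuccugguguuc
miR-29b-2-5p: cUGGUUUCacaugguggcuuagauu

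The seed AGCACCA was carried by 3 mature miRNAs in the RefSeq table, the 3 guide strands. Counted from the 5′ end of miR-29a-3p, miR-29c-3p differs from it by C10U alone, and miR-29b-3p by C10U, G18A, U21G and A22U and by an additional base at its 3′ end. The letters AGUGUU, described as a nuclear import signal of miR-29b, begin at position 18 of miR-29b-3p and occur in 12 of 1679 mature miRNAs of the table (0.715%). The 4 passenger sequences have different seeds. Counted from the 5′ end of miR-29b-1-5p, miR-29b-2-5p starts 1 base later, and 19 of their 21 aligned bases are identical, the differences being U11C and U19C. Uridine, the base that Ψ replaces, makes up 27.3%, 34.8% and 31.8% of miR-29a-3p, miR-29b-3p and miR-29c-3p, and 50%, 45.5% and 40.9% of miR-29a-5p, miR-29b-1-5p and miR-29c-5p.

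The hairpins lie in 2 clusters (GRCm38, the assembly also called mm10). Mir29a, at chr6:31062660-31062747, and Mir29b-1, at chr6:31063023-31063093, are on the minus strand with 275 bases between them, and the edge of Mir29b-1 overlaps an exon of the long noncoding RNA Gm27019. Mir29b-2, at chr1:195037040-195037120, and Mir29c, at chr1:195037547-195037634, are on the plus strand with 426 bases between them. Both lie inside an exon of the noncoding transcript A330023F24Rik on the same strand, and opposite an exon of Cd46, which encodes a complement regulator. miR-29b-3p is made from both miR-29b hairpins, and the authors' pipeline divided its reads almost evenly, with 38078.3 estimated counts over the 18 libraries at Mir29b-1 and 38151.3 at Mir29b-2, so its hairpin of origin cannot be told from these counts. The rows were summed. Reads of miR-29a-3p and miR-29c-3p that carry an error at the base that separates them may have been assigned to the wrong strand.

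The KD6 input replicate A held 241109 mapped reads, while the other 17 libraries held 3989031 to 15099781. This library was too shallow for the rarer members. It held 0 counts of miR-29a-5p, 1.3 estimated counts of miR-29c-3p, 2 of miR-29b-1-5p and 5 of miR-29c-5p, and there 3 counts, the limit that a count of 0 allows, correspond to 14.8 CPM (counts scaled to a common library total), against 0.216 to 1.37 CPM in the other 17 libraries. Replicate C of the KD6 input also stood apart, with the highest level of all 3 guide strands among the 18 libraries. Such limits cover counting error only, since amplified reads are not independent molecules. The fibroblast label was checked with 6 miRNAs abundant in fibroblasts, miR-21a-5p, miR-199a-3p, miR-214-3p, miR-143-3p, miR-145a-5p and miR-10b-5p, which together held 306839 to 680823 CPM in the inputs. Summed markers of blood cells and epithelium were at most 1.15 CPM in the inputs. The hepatocyte marker miR-122-5p was at 21.6 to 93.8 CPM and the muscle markers miR-1a-3p, miR-133a-3p and miR-206-3p summed to 84.3 to 213 CPM, and miR-9-5p and miR-124-3p, listed for neurons, summed to between 2458 and 3337 CPM, nearly all of it miR-9-5p. In a culture, fewer cells that make a miRNA and fewer copies per cell cannot be told apart.

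In WT input the guide strand miR-29a-3p dominated the family. Levels are CPM after median-ratio scaling of the miRNA counts. They were not divided by length, since a small RNA read stands for 1 strand, whole or trimmed, and not for a fragment of a long transcript. The reads of a member include variants of the sequence printed above, 502 to 586 distinct read sequences of miR-29a-3p in each WT input. miR-29a-3p was at 3760, 4177 and 5062 CPM in WT input replicates A, B and C (4333 ± 665, SD, n = 3), the 27th most abundant of the 1907 miRNAs. miR-29b-3p was at 184, 486 and 1041 CPM (570 ± 435), rank 78, and no library of it reached the lowest library of miR-29a-3p. miR-29c-3p, the guide strand that differs from miR-29a-3p by a single base, was at 10.2, 14.0 and 12.2 CPM (12.1 ± 1.86), rank 277. This was 0.0027, 0.0033 and 0.0024 of the counts of miR-29a-3p. How much of it came from miR-29a-3p reads with an error at that base, here and in the ratios below, was not tested.

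The passenger strands were all near the level of miR-29c-3p in WT input. miR-29b-1-5p was at 8.99, 11.9 and 11.2 CPM and miR-29c-5p at 10.8, 9.82 and 11.0 CPM, and their ranges overlapped each other and that of miR-29c-3p. miR-29a-5p, at 6.60, 6.98 and 7.83 CPM (7.14 ± 0.63), was below every library of these 3 members. miR-29b-2-5p was lower again at 1.63, 2.47 and 3.48 CPM. In these inputs miR-29a-5p thus made up 0.155% to 0.175% of the reads of its hairpin, miR-29b-1-5p 1.06% to 4.65% of the reads of miR-29b-3p and itself, and miR-29c-5p 41.3% to 51.3% of the reads of its own hairpin. For miR-29c, guide and passenger are therefore names of the 3p and 5p strands and not of unequal levels in these inputs.

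**Figure D1:**
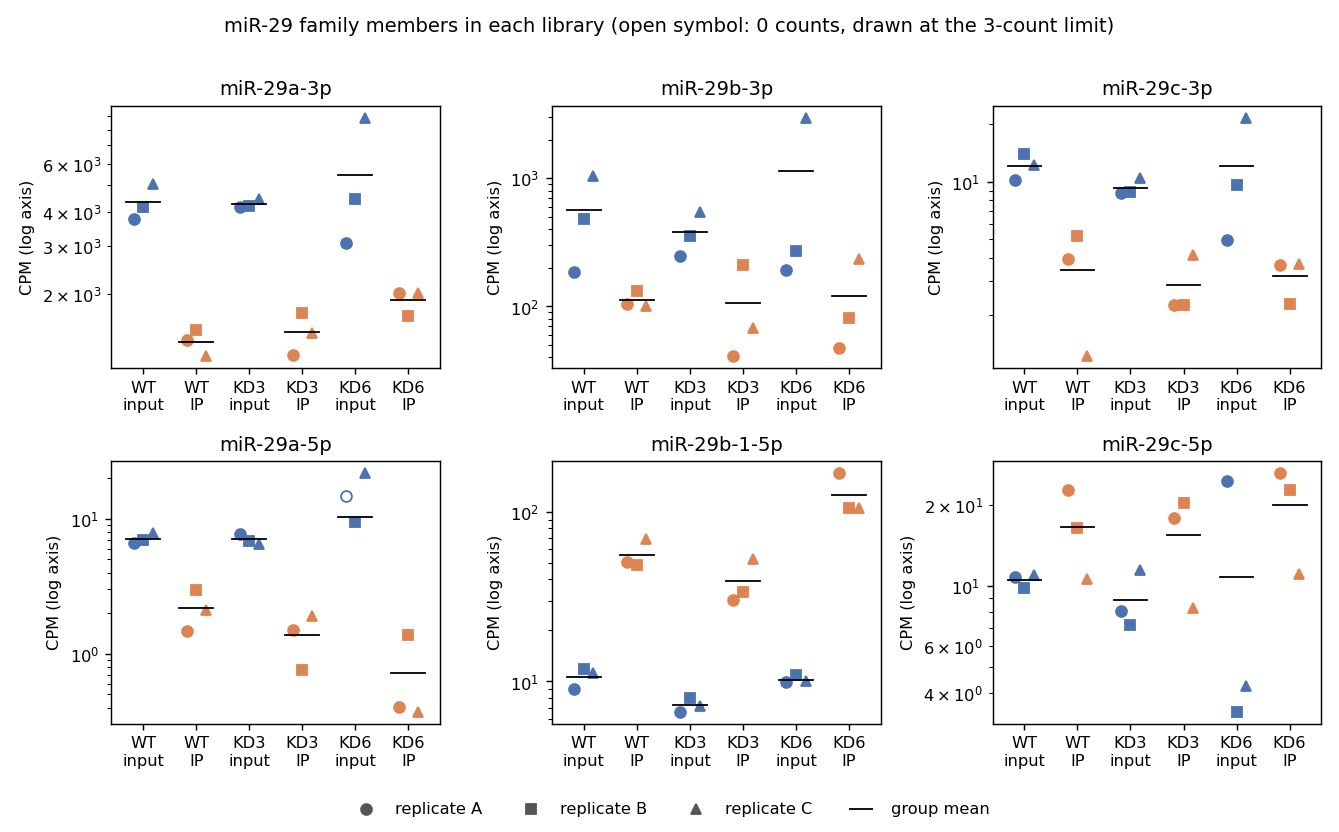
CPM on a log axis (a separate scale per panel) of the 6 members in each of the 18 libraries, inputs in blue and IP in orange, with circles, squares and triangles for replicates A, B and C, a line for the group mean of 3 libraries, and an open symbol for the library with 0 counts, drawn at 14.8 CPM. The group means of the guide strands and miR-29a-5p are lower in IP than in input in all 3 conditions, miR-29b-1-5p lies higher in every IP library, and the KD6 input replicate C, at 2961 CPM of miR-29b-3p, lies above its group.

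In WT cells the Ψ-IP recovered the miR-29 guide strands poorly relative to other miRNAs, and it recovered the passenger strand miR-29b-1-5p well. Of the 6 members, 1 was higher in IP than in input (miR-29b-1-5p), 4 were lower (the 3 guide strands and miR-29a-5p) and miR-29c-5p did not pass the threshold (edgeR quasi-likelihood test over 550 miRNAs, Benjamini-Hochberg adjusted p under 0.05). This stands against a background in which 68.9% of all miRNAs tested were called in WT, 31.5% as higher and 37.5% as lower, so that being called was the common outcome. For 5 of the 6 members the IP range lay clear of the input range, as for 76% of all miRNAs. The median log2 ratio was −1.69 over the 6 members and −0.04 over all 550 miRNAs. Ratios measure a miRNA against the others in the library, not the absolute amount recovered.

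miR-29a-3p was at 1357, 1473 and 1178 CPM in WT IP, and all 3 libraries lay under the 3 inputs given above. Its log2 ratio of IP to input was −1.70 (SE 0.26, edgeR adjusted p = 7.1e-06), a 3.24-fold lower level. miR-29c-3p was at 3.95, 5.22 and 1.21 CPM in WT IP, with a log2 ratio of −1.84 (SE 0.42, edgeR adjusted p = 0.00063). miR-29b-3p was at 104, 131 and 101 CPM in WT IP, tight in IP where the inputs were spread 5.65-fold, and its log2 ratio of −2.35 had a larger error (SE 0.80, edgeR adjusted p = 0.0137). Without replicate C of the WT input, in which miR-29b-3p was highest, the ratio of miR-29b-3p was −1.57 and no longer passed (edgeR adjusted p = 0.101).

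Among the passenger strands, miR-29b-1-5p rose to 50.4, 48.8 and 68.9 CPM in WT IP, 5.23-fold over input (log2 ratio 2.39, SE 0.26, edgeR adjusted p = 4.6e-08). This put it at place 43 from the highest of the 550 ratios. miR-29a-5p fell to 1.48, 2.98 and 2.12 CPM (log2 ratio −1.68, SE 0.45, edgeR adjusted p = 0.0025), close to the change of its own guide strand. miR-29c-5p was at 22.7, 16.4 and 10.6 CPM, with replicate C inside the range of the inputs, and its log2 ratio of 0.64 (95% interval −0.20 to 1.48) did not pass (edgeR adjusted p = 0.165). The passenger strand of the second miR-29b hairpin, miR-29b-2-5p, went the other way from miR-29b-1-5p: 2 counts were left in the 3 WT IP libraries together against 95 in the inputs, a ratio of 0.0484 after scaling (exact 95% interval 0.00578 to 0.180, counting error only; edgeR log2 ratio −4.19, adjusted p = 0.00072). The miR-29b passenger strands, whose aligned parts differ by U11C and U19C, therefore lay on opposite sides of input in WT cells. The difference between their ratios was not tested.

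**Figure D2:**
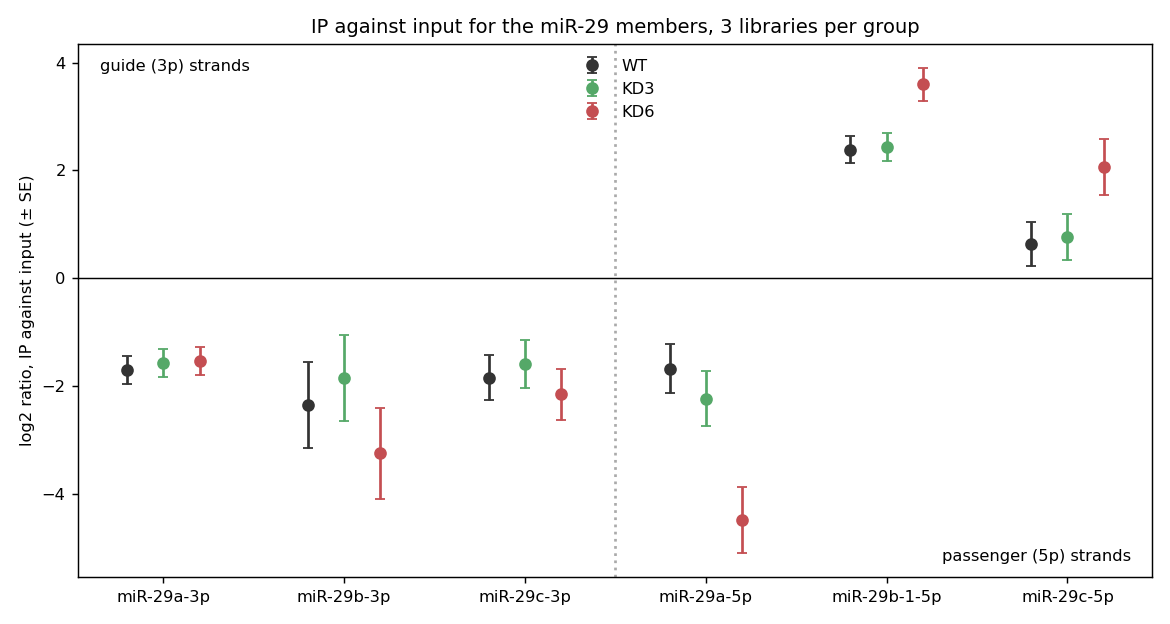
The log2 ratio of IP to input with its SE (error bars) for each member in WT (black), KD3 (green) and KD6 (red), 3 IP against 3 input libraries per point. The 3 guide strands and miR-29a-5p lie under 0 in all 3 conditions, miR-29b-1-5p lies between 2.39 and 3.60, and miR-29c-5p between 0.64 and 2.07.

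The members divided in the same way 3 days after Pus1 knockdown. In KD3 again 1 member was called higher and 4 lower, against 70.5% of all miRNAs called (34.4% higher and 36.2% lower). The groups did not overlap for 5 of the 6 members, as for 75.5% of all miRNAs. miR-29a-3p was at 4170, 4196 and 4463 CPM in KD3 input and at 1193, 1699 and 1441 CPM in KD3 IP (log2 ratio −1.57, SE 0.26, edgeR adjusted p = 1.9e-05). miR-29c-3p went from 8.71, 8.79 and 10.4 CPM to 2.24, 2.26 and 4.13 CPM (log2 ratio −1.59, edgeR adjusted p = 0.0035). miR-29b-3p was at 248, 357 and 542 CPM in KD3 input and at 40.8, 212 and 68.0 CPM in IP, and its log2 ratio of −1.85 passed narrowly (edgeR adjusted p = 0.0438). That call was lost with DESeq2 (adjusted p = 0.0797), with library size in place of median-ratio factors (edgeR adjusted p = 0.0569), and without KD3 input replicate B or C or KD3 IP replicate A or C (log2 ratios from −1.89 to −1.43, edgeR adjusted p from 0.0625 to 0.160). Without KD3 IP replicate B, the highest of the 3, the ratio of miR-29b-3p was −2.80 and passed.

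The KD3 passenger strands showed the same order. miR-29b-1-5p was at 6.62, 7.94 and 7.20 CPM in KD3 input and at 30.3, 33.9 and 52.4 CPM in KD3 IP, 5.41-fold higher (log2 ratio 2.43, SE 0.26, edgeR adjusted p = 5.2e-08). miR-29a-5p went from 7.77, 6.85 and 6.48 CPM to 1.5, 0.75 and 1.91 CPM (log2 ratio −2.23, edgeR adjusted p = 0.00056), with 18 counts left in the 3 IP libraries together. miR-29c-5p was at 8.06, 7.16 and 11.5 CPM in input and at 17.9, 20.3 and 8.26 CPM in IP, and did not pass (log2 ratio 0.77, edgeR adjusted p = 0.107). Without KD3 IP replicate C, the single KD3 IP library of miR-29c-5p that lay within the inputs, it passed (log2 ratio 1.12, edgeR adjusted p = 0.0304). miR-29b-2-5p had 2 counts in KD3 IP and 58 in KD3 input (edgeR log2 ratio −3.10, adjusted p = 0.0128).

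At 6 days all 6 members were called (5 when only the KD6 libraries were fitted, where the filter left miR-29a-5p untested), 2 of them higher (miR-29b-1-5p and miR-29c-5p) and 4 lower, against 71.3% of all miRNAs (35.8% higher and 35.5% lower). The groups did not overlap for 3 of the 6 members, against 59.3% of all miRNAs. miR-29b-1-5p was at 9.87, 10.9 and 10.0 CPM in KD6 input and at 169, 105 and 105 CPM in KD6 IP, 12.1-fold higher (log2 ratio 3.60, SE 0.30, edgeR adjusted p = 8.8e-10), at place 27 from the highest of the 550. When scaled by the total of mapped reads the log2 ratio of miR-29b-1-5p was 2.38 in KD6 and 1.84 in KD3, and still passed. These IP levels were above every WT and KD3 IP library of miR-29b-1-5p. Its reads per distinct read sequence were 14.7, 16.4 and 15.8 in KD6 IP, against 9.51, 7.61 and 10.1 in WT IP and 5.4, 6 and 10.5 in KD3 IP. The KD6 IP libraries had reads of 582, 576 and 669 miRNAs. In WT IP there were 706, 716 and 761, and in KD3 IP 654, 640 and 789. The part of this in the KD6 ratios of the members was not tested. miR-29c-5p was at 24.7, 3.41 and 4.26 CPM in input and at 26.3, 22.8 and 11.1 CPM in IP (log2 ratio 2.07, SE 0.51, edgeR adjusted p = 0.0012), where the high input value is the 5 counts of shallow replicate A and overlaps the IP range. Leaving that library out gave a log2 ratio of 1.88 for miR-29c-5p (edgeR adjusted p = 0.00075), but when scaled by the total of mapped reads it was 0.82 and did not pass (edgeR adjusted p = 0.133). The mean IP levels of miR-29c-5p were 16.6, 15.5 and 20.1 CPM in WT, KD3 and KD6. Its KD6 input replicates B and C lay under every WT and KD3 input.

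miR-29a-5p was nearly gone from KD6 IP. It had 1, 3 and 2 counts there (0.40, 1.37 and 0.37 CPM) and 0, 68.6 and 259.8 estimated counts in KD6 input (0, 9.40 and 21.7 CPM). The 6 counts against 328 correspond to a ratio of 0.0355 after scaling (exact 95% interval 0.0129 to 0.0782, counting error only), and edgeR gave a log2 ratio of −4.48 (SE 0.61, adjusted p = 1.2e-06). It remained called without input replicate A (−5.08), without input replicate C (−3.67) and without IP replicate B (−5.11). miR-29b-2-5p, with 5 counts in KD6 IP and 24 in KD6 input, did not pass (edgeR log2 ratio −1.33, adjusted p = 0.231).

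The KD6 guide strands depended on input replicates A and C. miR-29a-3p was at 3081, 4458 and 8833 CPM in KD6 input and at 2012, 1655 and 2017 CPM in KD6 IP (log2 ratio −1.53, edgeR adjusted p = 2.3e-05), and without input replicate C the ratio was −0.99 and still passed (edgeR adjusted p = 0.00020), while without input replicate A it was −2.27. miR-29c-3p was at 4.94, 9.68 and 21.6 CPM in input and at 3.64, 2.28 and 3.72 CPM in IP (log2 ratio −2.15, edgeR adjusted p = 0.00035; −1.44 and adjusted p = 0.0190 without input replicate C). miR-29b-3p was at 193, 271 and 2961 CPM in input and at 47.7, 81.3 and 235 CPM in IP, so that the groups overlapped. Its log2 ratio of −3.25 (SE 0.84, edgeR adjusted p = 0.0016) shrank to −0.95 without input replicate C, when it did not pass (edgeR adjusted p = 0.198), and was −4.16 without input replicate A and −4.17 without IP replicate C.

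**Figure D3:**
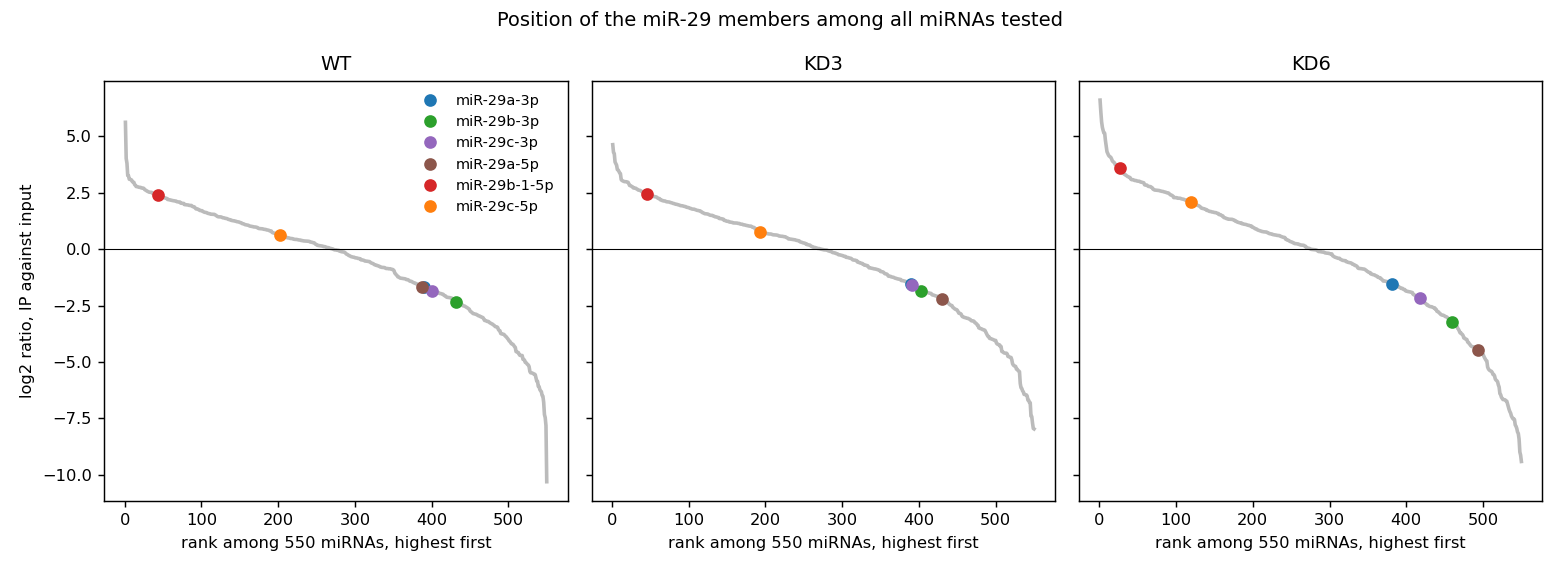
All 550 miRNAs tested, in order of their log2 ratio of IP to input (grey line; x axis, rank with the highest first; y axis, log2 ratio), in WT, KD3 and KD6, with the 6 members as coloured points. miR-29b-1-5p is at ranks 43, 46 and 27, while the guide strands are between ranks 381 and 460, in the lower part but away from the lowest ratios.

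The scaling of the libraries moves all ratios together and so bears on these directions. When the total of mapped reads served as library size, the median log2 ratio of the 550 miRNAs went to −0.37 in WT, −0.61 in KD3 and −1.14 in KD6, and the share of calls that were higher in IP fell from 45.6% to 38.2%, from 48.7% to 33.5% and from 50.3% to 27.7%. With TMM factors the medians were −0.35, −0.26 and −0.35. The direction of all 6 members was the same under each of these scalings. Reads outside miRNA rows, which enter the total of mapped reads alone, were 5.60% (input) and 16.8% (IP) of the total in WT, 9.66% and 32.4% at 3 days and 8.82% and 27.6% at 6 days. Their part in the ratios of the members was not tested.

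Ratios of strands within a library do not depend on that scaling. Against their guide strands, miR-29b-1-5p and miR-29c-5p were a larger part of the reads in IP than in input, while miR-29a-5p was not. Because reads of miR-29b-3p come from both miR-29b hairpins, its ratio to miR-29b-1-5p is not that of a single hairpin, and miR-29b-2-5p, which was lower in WT IP, has no part in it. The log2 ratio of miR-29b-3p to miR-29b-1-5p differed by −4.95 between IP and input over the 3 conditions, a 30.9-fold drop (two-sided exact test permuting libraries inside each condition, p = 0.00025, which is the lower limit of the design; adjusted p = 0.00075 over 6 values; n = 9 libraries per side). No IP library overlapped an input of its condition, from which it follows that the ratio was lower in IP in 9 of 9 same-letter pairs. In percent of the reads of these strands, miR-29b-1-5p went from 4.65, 2.39 and 1.06 in the WT inputs to 32.7, 27.1 and 40.6 in WT IP. In KD3 it went from 2.60, 2.18 and 1.32 to 42.6, 13.8 and 43.5 percent. In KD6 it went from 4.83, 3.89 and 0.336 to 77.9, 56.4 and 30.9 percent, so that in KD6 IP replicates A and B the passenger strand outnumbered the guide strand.

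For miR-29c the log2 ratio of guide to passenger strand differed by −2.78 in IP, a 6.86-fold drop (exact permutation p = 0.0005, adjusted p = 0.001, n = 9 libraries per side), lower in 9 of 9 same-letter pairs. miR-29c-5p went from 51.3, 41.3 and 47.3 percent of the hairpin's reads in the WT inputs to 85.6, 76.3 and 90.4 percent in WT IP. The KD3 values went from 48.0, 44.7 and 52.2 percent to 89.7, 89.3 and 66.9 percent. In KD6 the inputs were at 79.4, 26.0 and 16.5 percent and the IP libraries at 87.8, 91.2 and 74.9 percent, and the high KD6 input value again rests on the few counts of replicate A. Within single conditions the smallest p that 3 libraries against 3 allow is 0.1, which was reached in WT and KD3 for miR-29c and in all 3 conditions for miR-29b (exact permutation).

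The miR-29a hairpin did not follow this pattern. Its log2 ratio of guide to passenger strand was 0.91 higher in IP (exact permutation p = 0.0353, adjusted p = 0.0529, n = 9 libraries per side), in 7 of 9 same-letter pairs. The WT groups overlapped, with means of 9.23 ± 0.09 in input and 9.27 ± 0.50 in IP (SD, n = 3), while the KD3 means were 9.24 and 9.93 and the KD6 means 9.28 and 11.3. In KD6 IP this ratio rests on the 1 to 3 counts of miR-29a-5p per library. Adding 1 in place of 0.5 to each count gave 0.85 with an adjusted p of 0.0308 (exact permutation), and leaving out WT IP replicate B or C, KD3 IP replicate A or C or KD6 IP replicate B gave 0.94 to 1.11 with adjusted p from 0.0281 to 0.0416.

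Among the guide strands, which share their seed, the IP made no difference past the threshold. The log2 ratio of miR-29b-3p to miR-29a-3p differed by −0.65 in IP (exact permutation p = 0.156, adjusted p = 0.156, n = 9 libraries per side), with inputs from −4.35 to −1.58 and IP libraries from −5.39 to −3.00. That of miR-29c-3p to miR-29a-3p differed by −0.32 (exact permutation p = 0.138, adjusted p = 0.156, n = 9 libraries per side), and it passed without KD3 IP replicate C (−0.41, adjusted p = 0.0342, exact permutation). In WT cells the 6 members together took 0.566% ± 0.135 of all miRNA reads before IP and 0.158% ± 0.020 after it (SD, n = 3). At 3 days of knockdown these values were 0.498% ± 0.044 and 0.153% ± 0.036, and at 6 days 0.868% ± 0.738 and 0.158% ± 0.038. Every IP library was under every input library of its condition, from which it follows that 9 of 9 same-letter pairs were lower in IP. Over the conditions the share in IP differed from that in input by a mean of −0.488 percentage points (exact permutation p = 0.00025, adjusted p = 0.00075). Since miR-29a-3p and miR-29b-3p hold nearly all of these reads, the share follows them.

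**Figure D4:**
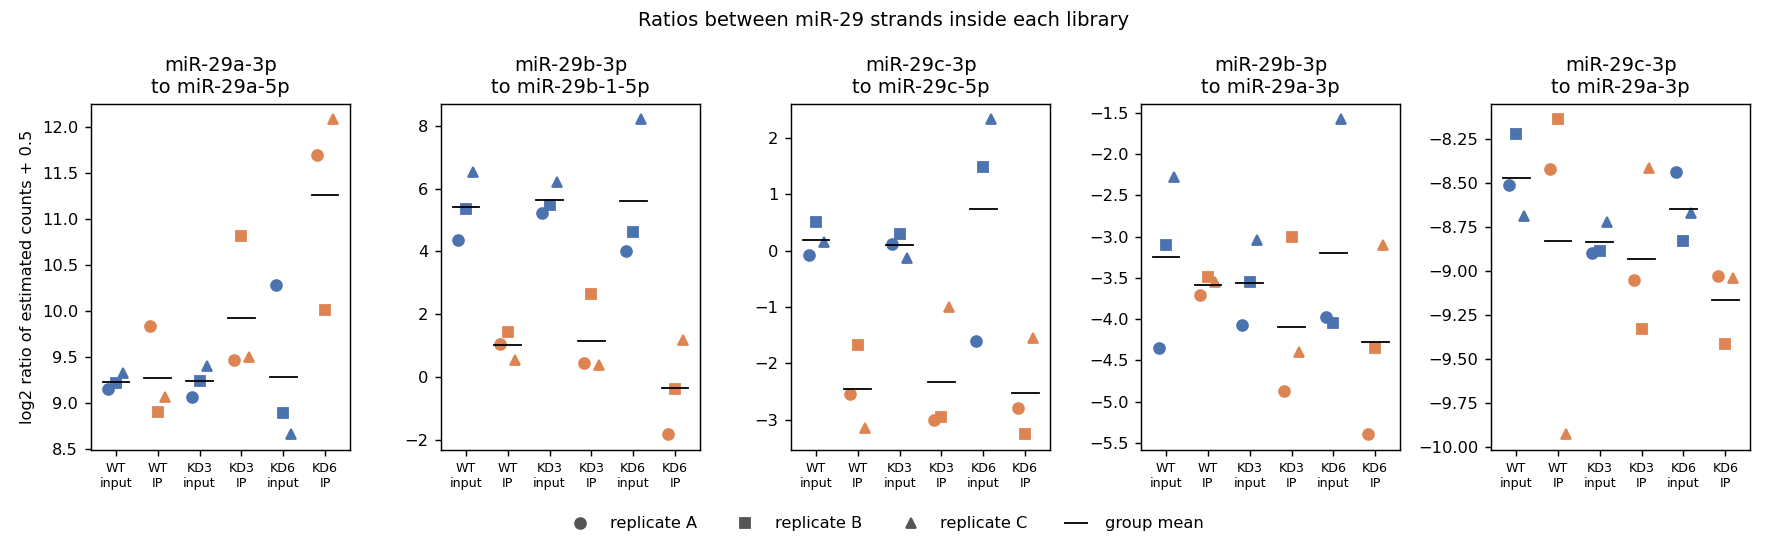
Log2 ratios of estimated counts (plus 0.5) inside each library, on a separate scale per panel: guide to passenger strand for miR-29a, miR-29b and miR-29c, then miR-29b-3p and miR-29c-3p to miR-29a-3p, with inputs in blue, IP in orange, symbols for replicates A, B and C, and a line for the mean of 3 libraries. The miR-29b ratio is between 4.0 and 8.21 in the inputs and between −1.82 and 2.64 in IP. The miR-29c ratio also drops, but overlaps in KD6 (−1.61 in input replicate A, −1.55 in IP replicate C). The remaining ratios overlap between input and IP over the 18 libraries.

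Whether Pus1 knockdown changed recovery by the IP was asked with interaction contrasts, that is, the IP to input ratio of a knockdown less that of WT. These contrasts share the WT or knockdown libraries, and no member was called by edgeR in any of the 3 (0 members at an unadjusted p under 0.05 in KD3 against WT, 3 in KD6 against WT and 2 in KD6 against KD3). In KD3 against WT, 0% of the 550 miRNAs were called (edgeR; 16 at an unadjusted p under 0.05; DESeq2 called 0), and the members' log2 differences were −0.56 for miR-29a-5p, 0.50 for miR-29b-3p, 0.13 for miR-29a-3p, 0.25 for miR-29c-3p and 0.13 for miR-29c-5p. For miR-29b-1-5p the difference was 0.05, with a 95% interval of −0.68 to 0.77.

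In KD6 against WT again 0% were called by edgeR, with 119 miRNAs at an unadjusted p under 0.05, of which 3 were members, while DESeq2 called 23. miR-29b-1-5p had a log2 difference of 1.21 (95% interval 0.44 to 1.98, edgeR adjusted p = 0.108), and miR-29a-5p one of −2.80 (95% interval −4.47 to −1.13, edgeR adjusted p = 0.0985). DESeq2 called both (adjusted p = 0.0439 and 0.0492). In edgeR, miR-29a-5p passed without KD6 input replicate A (−3.12, adjusted p = 0.0405), when 14 of 596 miRNAs were called, and miR-29b-1-5p passed without KD6 IP replicate C (1.31, adjusted p = 0.0355), when 57 of 593 were called. Without KD6 input replicate C, miR-29a-5p was at −2.0 (edgeR adjusted p = 0.291) and 0 of 589 miRNAs were called. miR-29c-5p had a log2 difference of 1.43 (95% interval 0.09 to 2.77, edgeR adjusted p = 0.214). The median of all 550 miRNAs in this contrast was 0.25, and when scaled by the total of mapped reads it was −0.56, where miR-29b-1-5p was at 0.34, miR-29c-5p at 0.49 and miR-29a-5p at −3.62. With that scaling miR-29a-5p passed (edgeR adjusted p = 0.0356), as did 51 of the 550 miRNAs.

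The KD6 guide strands gave log2 differences from WT of 0.17 for miR-29a-3p, −0.90 for miR-29b-3p and −0.31 for miR-29c-3p (edgeR adjusted p = 0.839, 0.692 and 0.835). Without KD6 input replicate C these became 0.70, 1.40 and 0.39, a change of sign for miR-29b-3p and miR-29c-3p. miR-29c-3p also changed sign without WT IP replicate B (0.18). Between KD6 and KD3, 0.182% of miRNAs were called (1 of 550, no member; 112 at an unadjusted p under 0.05; DESeq2 called 13), and miR-29b-1-5p was at 1.16 (95% interval 0.38 to 1.95, edgeR adjusted p = 0.116). There miR-29b-1-5p passed without KD6 IP replicate C (1.29, adjusted p = 0.0358), when 63 of 593 miRNAs were called by edgeR. miR-29a-5p was at −2.25 (95% interval −4.04 to −0.46, unadjusted p = 0.0163, edgeR adjusted p = 0.145), and at −1.44 without KD6 input replicate C. The other log2 differences between KD6 and KD3 were 1.30 for miR-29c-5p, 0.04 for miR-29a-3p, −1.40 for miR-29b-3p and −0.56 for miR-29c-3p.

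Whether the knockdown changed the level of the family was asked in the inputs, where no member was called by edgeR or DESeq2 in any of the 3 comparisons (1, 2 and 1 members at an unadjusted p under 0.05 in edgeR for KD3 against WT, KD6 against WT and KD6 against KD3). In KD3 against WT input 0% of all miRNAs were called (edgeR; 44 at an unadjusted p under 0.05; DESeq2 called 8). miR-29a-3p had a log2 difference of −0.02 (95% interval −0.55 to 0.51). miR-29b-1-5p had all 3 KD3 inputs under all 3 WT inputs, as 30.7% of all miRNAs had groups that did not overlap, and a log2 difference of −0.56 (95% interval −1.09 to −0.03, edgeR adjusted p = 0.542). The log2 differences of the other members were −0.58 for miR-29b-3p, −0.38 for miR-29c-3p, −0.02 for miR-29a-5p and −0.25 for miR-29c-5p.

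In KD6 against WT input 3.09% of all miRNAs were called, and in KD6 against KD3 input 4%. At an unadjusted p under 0.05 (edgeR) there were 78 and 97 of the 550 miRNAs in these comparisons. The 2 members at an unadjusted p under 0.05 in KD6 against WT input were passenger strands. miR-29a-5p had a log2 difference of 0.98 (95% interval 0.13 to 1.83, edgeR adjusted p = 0.259), which was 0.18 without KD6 input replicate C. miR-29c-5p had one of −1.17 (95% interval −2.19 to −0.14, edgeR adjusted p = 0.259). miR-29b-1-5p was at −0.04. Against KD3 input the passenger strands were at 1.00 for miR-29a-5p (0.19 without replicate C of the KD6 input), −0.92 for miR-29c-5p and 0.52 for miR-29b-1-5p, and the guide strands at 0.36 for miR-29a-3p, 1.61 for miR-29b-3p and 0.66 for miR-29c-3p. The guide strands followed replicate C of the KD6 input. miR-29b-3p had a log2 difference from WT of 1.03 with it and −1.26 without it, miR-29a-3p 0.34 and −0.20, and miR-29c-3p 0.28 and −0.43. In that library miR-29b-3p made up 25.1% of guide strand reads, against 4.66% to 17.0% in the other 8 inputs, and the family 1.70% of miRNA reads against 0.299% to 0.709%. The excess was on the guide strand side and on miR-29a-5p, at 21.7 CPM, while miR-29b-1-5p was at 10.0 CPM, within 1 CPM of the other KD6 inputs. For miR-29b-3p and miR-29a-3p, replicate C of the KD6 input also had the most reads per distinct read sequence. These were 128 for miR-29b-3p, where the other inputs had 7.30 to 71.8, and 157 for miR-29a-3p, where they had 15.2 to 109. miR-29a-5p also had its highest input value there (6.98). miR-29c-3p did not (7.48, against 9.05 in WT input replicate B), nor did miR-29b-1-5p and miR-29c-5p. The part of this in the guide strand levels was not tested. In each condition the input of replicate C had the highest miR-29b-3p level of its group and that of replicate A the lowest.

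The members and other miRNAs were also compared by pattern over the 18 libraries. The measure was the root mean square difference of log2 CPM, each miRNA centred on its own mean, over 148 non-member miRNAs with a mean of at least 100 CPM. miR-29a-3p was most like miR-27b-3p (0.29), miR-30c-5p (0.33) and miR-186-5p (0.34), against a median of 1.19 over the candidates. miR-29c-3p was most like miR-107-3p (0.48), miR-30c-5p (0.49) and miR-186-5p (0.50), and its difference from miR-29a-3p was 0.41, which is smaller than to any of them. Reads of miR-29a-3p assigned to miR-29c-3p may have a part in that likeness, which was not tested. miR-29b-3p stood further from all candidates, with miR-107-3p (0.92), miR-93-5p (0.93) and miR-186-5p (1.01) as the nearest, while its difference from miR-29a-3p was 0.88. miR-29b-1-5p and miR-29b-3p differed by 2.74, the second largest difference among the 15 pairs of members. The points share their libraries and are descriptions only.

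Other miRNAs known for roles in matrix and fibrosis mostly lay on the same side of input as the miR-29 guide strands. Of 21 listed, 17 were tested. In WT 13 were lower in IP, 2 higher and 2 not called, where 37.5% of all miRNAs were lower and 31.5% higher, with a median log2 ratio of −1.84 beside −0.04 for all miRNAs. In KD3 the counts were 12, 3 and 2 (median −1.90) beside 36.2% lower and 34.4% higher among all miRNAs, and in KD6 they were 11, 3 and 3 (median −1.42) beside 35.5% and 35.8%. Among those lower in WT was miR-21a-5p, a promoter of fibrosis abundant in fibroblasts, with a log2 ratio of −2.11 (SE 0.29, edgeR adjusted p = 1.9e-06). miR-101a-3p, at −5.48 (SE 0.24, edgeR adjusted p = 6.3e-14), was among the lowest. miR-155-5p, better known from immune cells, and miR-26a-5p were the higher ones, with log2 ratios of 2.70 (SE 0.20, edgeR adjusted p = 1.6e-10) and 1.31 (SE 0.20, edgeR adjusted p = 5.8e-06). In the inputs 1 of the 17 was lower in KD6 against WT and 1 in KD6 against KD3, beside 3.09% and 4% of all miRNAs called in either direction.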

How the data were processed

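Small RNA was sequenced from 9 input and 9 Ψ-IP libraries. The authors trimmed the 3′ adapter and quantified miRNAs with SeqImp (mm10, Ensembl 89, miRBase 21; version not given in the sources used here), and deposited expected counts per mature miRNA and hairpin, not normalised, in which a read matching several loci is divided. They also deposited numbers of distinct read sequences (an estimated count for each library), used here for reads per sequence. The 47.0% of non-zero values that were not whole (tolerance 1e-06) were kept for ratios. For tests, rows were summed per mature miRNA and rounded. The row of total mapped reads stayed out of library sizes and tests.

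The test was the quasi-likelihood test of edgeR 4.0.16 under R 4.3.3 (glmQLFit, glmQLFTest) with 6 group means, no block, filterByExpr (550 miRNAs tested, all 6 members among them) and median-ratio (RLE) factors, the kind of scaling that the study's methods name. The threshold was a Benjamini-Hochberg adjusted p under 0.05 over all 550. SE is the log2 ratio divided by the root of F. Intervals are 95% and unadjusted. Strand ratios and shares were compared by two-sided exact permutation within condition (8000 assignments). The scripts were tested on simulated data. Alternatives were TMM factors, library size, total mapped reads, no filter, a mean of at least 10 counts, the largest row in place of the sum, DESeq2 1.42.0, the replicate block, only the libraries compared, a pseudocount of 1, and each library left out.

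All 6 members are named in every comparison. The members, lists and tests were chosen with earlier results of these data known. The matrix and fibrosis list and the markers come from general knowledge of these miRNAs. Replicate letters paired the libraries by the correlation of their deviations over 188 miRNAs in 2 comparisons, KD3 against WT input (0.20 to 0.61) and KD6 against KD3 input (0.24 to 0.34). In KD6 against WT input these correlations were positive too, but reached down to 0.058 (0.058 to 0.43). No label says what a letter shares. Sequences and mature coordinates are from RefSeq (GRCm38.p6), and hairpins and overlaps from GENCODE M21, an annotation of GRCm38.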

Additional observations from a re-analysis of the deposited data

How the results depend on the processing

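The depth of replicate A of the KD6 input limits the KD6 values of the 4 rarer members, and replicate C of that group sets the KD6 values of the guide strands. In the 3 comparisons of IP with input, the direction of every member was the same in each alternative and left-out library that gave a value. miR-29a-5p in KD6 has no value when only the KD6 libraries are fitted, since the filter removed it, which left 5 members called. The other calls that were lost or gained are given beside the results above. The sign changes concern members not called. In the totals that follow, a small change in the number of members called, such as from 5 to 4, was taken as unchanged. Other values were unchanged when both sign and call stayed. Of 279 recomputed values of counts, strand ratios and shares, 263 were unchanged. Of 917 values of single members 847 were unchanged, 9 lost a call, 11 gained a call and 50 changed sign. The causes of these shifts were not tested.

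When the total of mapped reads served as library size, the change in enrichment for KD3 against WT became −0.13 for miR-29a-3p, −0.030 for miR-29c-3p, −0.21 for miR-29b-1-5p and −0.13 for miR-29c-5p. For miR-29a-3p in KD6 it became −0.66 against WT and −0.54 against KD3, with library size −0.51 and −0.63, and with TMM factors −0.040 against KD3. In KD6 against WT input, miR-29b-1-5p became 0.15 with library size, 0.092 with total mapped reads and 0.029 with only the libraries compared. Members called in the change of enrichment for KD6 against WT numbered 1 with total mapped reads (51 of 550 miRNAs called), 1 without the filter (14 of 1212), both times miR-29a-5p, and 2 with DESeq2 (23 of 550), in place of 0 (0 of 550). Without the filter 1 member was called in place of 0 in KD6 against KD3 enrichment (14 of 1212 miRNAs), in KD6 against WT input (17 of 1212) and in KD6 against KD3 input (23 of 1212), each time miR-29b-3p. A pseudocount of 1 brought the guide to passenger ratio of miR-29a to 0.85. The replicate block changed no call of a member, and turned the KD3 against WT input difference of miR-29a-5p to 0.0067.

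With each library left out in turn, members called ranged from 0 to 1 for the change in enrichment in KD6 against WT and from 0 to 1 in KD6 against KD3, while the same fits called 0 to 57 and 0 to 63 of all miRNAs, the highest counts without KD6 IP replicate C (593 tested). The ratio of miR-29a-3p to miR-29a-5p ranged from 0.76 to 1.11, and that of miR-29c-3p to miR-29a-3p from −0.44 to −0.14. The change in enrichment for KD3 against WT ranged from −0.011 to 0.28 for miR-29a-3p, −0.45 to 0.91 for miR-29b-3p, −0.22 to 0.71 for miR-29c-3p, −0.25 to 0.23 for miR-29b-1-5p and −0.13 to 0.46 for miR-29c-5p. For KD6 against WT it ranged from −0.29 to 0.70 for miR-29a-3p, −1.84 to 1.40 for miR-29b-3p and −0.75 to 0.39 for miR-29c-3p. For KD6 against KD3 these 3 ranged from −0.37 to 0.58, −2.31 to 0.91 and −0.88 to 0.16. In the inputs, KD3 against WT ranged from −0.11 to 0.11 for miR-29a-3p, −0.99 to 0.20 for miR-29b-3p and −0.10 to 0.057 for miR-29a-5p. KD6 against WT ranged from −0.20 to 0.65 for miR-29a-3p, −1.26 to 1.80 for miR-29b-3p, −0.43 to 0.60 for miR-29c-3p and −0.17 to 0.034 for miR-29b-1-5p. KD6 against KD3 ranged from −0.19 to 0.63, −0.69 to 2.07 and −0.049 to 0.98 for the guide strands.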
